A study of Gossypium hirsutum with 2 samples.

Results

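The tall promoter peaks at nuclear-type genes were 295 peaks given to 286 genes, out of 2183 promoter peaks at 2111 genes in the longer of 2 deposited peak lists. A peak was taken as tall when its pileup, the number of fragments stacked at its summit in the purified library, was 8 or more. A gene was taken as nuclear-type when its best protein hit was not marked as a chloroplast or mitochondrial record. The marks were the bracketed word chloroplast or mitochondrion, the word chloroplast just before the species name, or an accession of the organelle-genome type. Another 59 peaks were as tall but were left out by these marks, and the 1828 remaining nuclear-type peaks had a pileup of 4 to 7 and are called the lower peaks here.

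The peaks come from DNA affinity purification sequencing of GhD53 on genomic DNA of fiber, the single-celled seed hair of upland cotton (Gossypium hirsutum). A tagged protein made in vitro was mixed with naked DNA fragments, and the fragments held by it (fraction IP, 1 library) were set against the starting fragments (fraction input, 1 library). There was no second library of either fraction and no purification without GhD53. No difference below has a replicate spread or a test, and enrichment by GhD53 cannot be told apart from enrichment by the purification itself. Pileup, fold enrichment and q-value of each peak are the authors' own values.

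D53 proteins are repressors of strigolactone signalling. Strigolactones are carotenoid-derived hormones that restrain shoot branching. When the hormone binds its receptor, D53 is marked by a ubiquitin ligase and degraded, and genes held down through it are released. D53-type proteins act largely through corepressors, and their direct contact with DNA is less well described, which is the question a binding assay on naked promoter DNA addresses. The genes below are therefore promoters enriched in vitro, with no measurement of their expression.

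The members were chosen by pileup, so their pileup, fold and q-value are a description and support nothing. Over the whole longer list, 16.2% of peaks had a pileup of 8 or more. The median pileup was 10 fragments for the tall peaks, against 5 for the lower peaks, and the medians of fold were 5.67 and 3.73. Just inside the limit, the 96 peaks with a pileup of exactly 8 had folds of 3.23 to 5.60. Just outside it, the 189 nuclear-type peaks with a pileup of 7 had folds of 2.87 to 4.98. Many of the tall peaks thus sat close to the limit: 139 of the 295 had a pileup of 8 or 9.

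At a q-value limit of 1e-05, 177 tall peaks passed (60.0%), against 10.4% of the longer list. Also in the shorter list were 273 of the 295 (92.5%), against 34.4% of the longer list. Because the members were chosen by pileup, both shares are read no further. The shorter-list share did not rise steadily with pileup. It was 94.2% at pileups of 8 to 9, 96.9% at 10 to 20 and 81.0% above 20. Of the 295 peaks, 293 had a q-value of 0.05 or lower.

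The label nuclear-type held for most but not all members. Of the 295 peaks, 27 peaks at 20 genes carried the name of a gene that plastid genomes encode, although their records lacked the organelle marks. For 20 of the 27 peaks the best hit was filed under a bacterial species. The names were 30S ribosomal proteins S2, S3, S7, S11 and S14, ribosomal protein L2, Ycf2, the alpha subunit of the plastid-type RNA polymerase, NAD(P)H-quinone oxidoreductase subunit H, ATP synthase subunit beta, the large chain of ribulose bisphosphate carboxylase and photosystem II protein D2. These peaks had a median pileup of 137 on a median background of 31.6 and a median fold of 3.47, and 0 of them lay on the lowest background. By fold they were led by the S3-type gene GH_D02G1279, with a pileup of 196 at 12.2-fold, 1160 bp downstream of the start site (D02, 38349161 to 38349380). Next was GH_A13G1011, also S3-type, with 137 at 9.68-fold, 1144 bp downstream of the start site. By annotation both of these peaks fell in another or a second gene's promoter. The carboxylase large-chain-type GH_A05G3166, a gene of carbon fixation, had 178 at 7.81-fold, the S3-type GH_A09G1191 had 78 at 7.55-fold and the S11-type GH_A08G0696 had 144 at 5.48-fold. The oxidoreductase H-type GH_D09G0495 was unlike the rest, with a pileup of 11 at 6.41-fold on a background of 0.871. The 268 other tall peaks had a median pileup of 9, a median background of 0.608 and a median fold of 6.07. Shares below include the plastid-type names unless they are said to be left out.

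Background here means the fragments expected at a summit, recovered from the pileup and the fold of each peak. Its lowest value, 0.608, lay under 177 tall peaks (60.0%, Wilson 95% interval 54.3 to 65.4), against 1667 of the 1828 lower peaks (91.2%, 89.8 to 92.4). Without the plastid-type names the share among tall peaks was 66.0% (60.2 to 71.5). It was 81.3% at pileups of 8 to 9, 64.3% at 10 to 20 and 1.72% above 20, so the highest pileups stood where the expected fragment number was raised too.

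**Figure D1:**
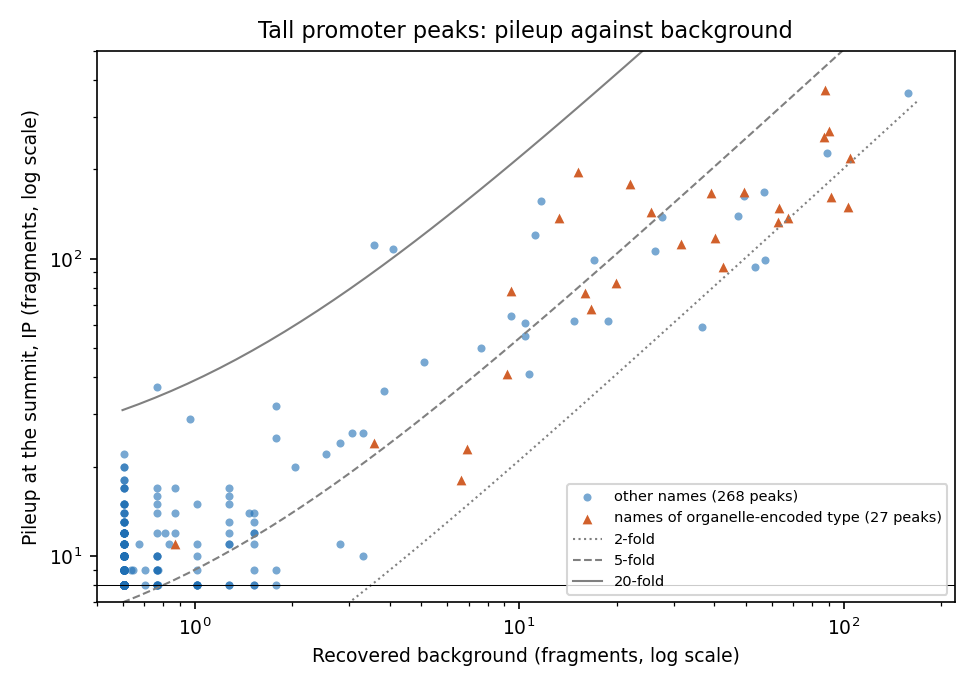
Pileup of each of the 295 tall peaks in the IP library against the background recovered from its fold, both in fragments on log scales. Blue points are 268 peaks with other names and orange triangles 27 peaks with names of organelle-encoded type; grey lines mark 2-, 5- and 20-fold, and the horizontal line the pileup of 8. Most blue points stand in a column at a background of 0.608, and nearly all triangles lie at high pileup and high background.

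The 58 tall peaks with a pileup above 20 were thus a mixed set. Plastid-type names accounted for 25 of them and other names for 33. Only 5 of the 58 stood on a background under 2, and 39 stood on one of 10 or more. The 5 were GH_A04G1309, GH_A04G0257, GH_D11G2764, GH_D11G1388 and GH_A01G2212, which were picked out after their values were seen. A peak of another gene with an organelle-type name or an organelle mark lay within 50000 bp of the summit for 18 of the 27 plastid-type peaks. The same was true of 2 of the 33 peaks with other names above a pileup of 20, of 0 of 96 at 10 to 20 and of 0 of 139 at 8 to 9. The 2 exceptions, GH_A13G1008 and GH_A13G1009 on chromosome A13, had pileups of 36 and 45 and lay beside the S3-type gene GH_A13G1011, whose pileups were 137 and 24. The lower peaks were not counted in this way, so nearness to such a peak is not read as a trait of the highest peaks.

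Outside the plastid-type names, peaks above a pileup of 20 had both low and high folds, and 14 of these 33 peaks were below 5-fold. GH_D03G0871, with no informative name, had the highest pileup of them, 361, at 2.28-fold. Of the 7 genes with an informative name and a pileup above 100, 4 were below 5-fold in every such peak. GH_D11G1644, a ribonuclease 3-like gene of the family that cuts double-stranded RNA, had pileups of 226 and 168 in 2 peaks, with folds of 2.53 and 2.92 on backgrounds of 88.7 and 56.8. GH_A08G0509, for a flavoprotein subunit of mitochondrial complex I, had a pileup of 139 at 2.89-fold. A further complex I gene, GH_A10G2059, had 138 at 4.87-fold, and the FTSH 7-like protease gene GH_A05G0906 had 106 at 3.93-fold. The other 3 were among the strongest by fold. The Mediator 26c-like GH_A05G4214 had a pileup of 156 at 12.3-fold, the WHY2-like GH_A08G2618 had 111 at 24.5-fold, and the indeterminate-domain 2-like GH_D03G0158 had 108 at 21.5-fold. The limit of 100 was chosen after the values were seen.

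By fold, 16 tall peaks reached 10 or more, 229 lay between 5 and 10, and 50 lay below 5. Of the last 50, 33 had a pileup above 20 and 20 had plastid-type names. Of the 10 genes with the highest fold in the longer list, 8 are members: GH_A08G2618, GH_A04G1309, GH_D03G0158, GH_A04G0257, GH_D11G2764, GH_A11G0096, GH_A01G0185 and GH_A05G4214. The genes that follow come after these.

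GH_D01G2087, a putative cytosine-5 DNA methyltransferase of the CMT1 type, had a pileup of 18 at 11.8-fold on chromosome D01 (58447716 to 58447951), 1223 bp upstream of the start site. A second chromomethylase gene, the CMT3-like GH_D08G0876, had a pileup of 12 at 8.09-fold, 1401 bp upstream. In Arabidopsis CMT3 keeps cytosines methylated outside CG sites. GH_A06G1959, a FLOWERING LOCUS D-like gene whose Arabidopsis namesake acts on histone methylation and promotes flowering, also had a pileup of 18 at 11.8-fold (A06, 121105904 to 121106381), 2056 bp upstream. GH_D10G1796, a JMJ16-type lysine demethylase, followed with 11 at 7.46-fold.

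Other genes for handling DNA and RNA were lower. The topoisomerase 3-beta-like GH_D10G1464 and the splicing factor gene GH_D01G2432 (RS2Z33-like) both had a pileup of 10 at 6.84-fold. GH_D03G0831, for a subunit shared by RNA polymerases I and III, had 9 at 6.22-fold, and the DNA repair gene GH_A07G0387 (RAD5) had 13 at 6.16-fold on a background of 1.27. Chromatin, RNA and translation names covered 12 genes by the word lists (4.20%, Wilson 95% interval 2.42 to 7.19), against 4.65% of the 1786 genes with lower peaks alone. The lists missed some tall genes of RNA handling, which stand among the other named ones. Examples are GH_A08G1866 (nonsense transcript regulator 1-like) and GH_D09G0547 (cleavage and polyadenylation factor subunit 1-like), both picked out after their values were seen. Such misses were not counted among the lower peaks.

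The authors assigned a family to 21 of the 286 genes (7.34%, Wilson 95% interval 4.85 to 11.0), against 7.50% of the genes of lower peaks. Without the plastid-type names the tall share was 7.89% (5.22 to 11.8). The 21 genes fell under 19 of the authors' family labels, with 3 genes of the C2H2 zinc finger family and 1 under each of the other 18 labels. Of the C2H2 genes GH_D03G0158 had a pileup of 108, and both GH_D12G1721, named for SHOOT GRAVITROPISM 5, and the ZAT9-like GH_A12G2372 had 8. A further 4 genes were counted as regulators by name alone. After GH_A08G2618 (WHY2-like), GH_D03G0158 (indeterminate-domain 2-like), GH_A05G4214 (Mediator 26c-like) and GH_A06G1959, the highest were GH_A06G2062, an HMG-type gene with a pileup of 15 at 9.95-fold (1070 bp upstream), and GH_A03G0073, of the type-B response regulator family that carries cytokinin signals, with 14 at 8.50-fold (1893 bp upstream). GH_D09G0268, homologous to AGL9, a MADS-box gene of the SEPALLATA class of flower organ identity, had 11 at 7.46-fold (1452 bp upstream). GH_A03G2266, a bHLH121-like gene whose Arabidopsis namesake acts in iron uptake, had 10 at 6.84-fold. GH_D02G2402, a GATA factor 5-like gene, had its peak of pileup 9 only 155 bp upstream and was named after that was seen.

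Names of organelle-targeted proteins, which are encoded in the nucleus and sent to plastids or mitochondria, and of pentatricopeptide repeat proteins, which bind organelle RNA, covered 19 genes (6.64%, 4.29 to 10.1), against 5.49% of genes with lower peaks alone. After the FAD synthetase gene GH_A04G1309 they were led by GH_A09G2416, for a plastid pyruvate kinase that supplies pyruvate, and GH_A11G2416, for a glutathione synthetase. Each had a pileup of 14 at 9.33-fold on the lowest background, 1699 and 1186 bp upstream. GH_A12G0885, an FKBP13-like immunophilin of the thylakoid lumen, and the pentatricopeptide gene GH_D05G3727 both had 13 at 8.71-fold. GH_D09G1885, for a peptidyl-tRNA hydrolase that recycles stalled tRNAs, had 17 at 7.92-fold on a background of 1.27. GH_A10G0089, for a mitochondrial pyruvate carrier, had a pileup of only 11 but a peak of 907 bp, the longest outside the plastid-type names.

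Metabolic enzymes covered 16 genes (5.59%, 3.47 to 8.89), against 7.56% of genes with lower peaks alone. The triacylglycerol lipase 2-like GH_A07G2133 led with a pileup of 17 at 11.2-fold, 1995 bp upstream. GH_A01G2212, for a dehydrogenase of lignan synthesis, had 25 at 9.34-fold on a background of 1.78. GH_D05G2219, for the reductase that passes electrons to cytochromes P450, had 12 at 8.09-fold, and GH_D11G1500, for a phosphotransferase that makes membrane phospholipids, had 11 at 7.46-fold. The AIR1-type gene GH_D12G2410, placed here by the word list although its name is of a lipid-binding protein, had 10 at 6.84-fold. The carboxylesterase gene GH_A05G3580 had 9 at 6.22-fold. By the same words the complex I gene GH_A10G2059 was counted here, whereas GH_A08G0509 was counted as organelle-targeted.

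Receptor-like and disease resistance names covered 11 genes (3.85%, 2.16 to 6.76), against 3.42%. FERONIA, a receptor kinase that senses peptides and the wall during growth, was the name of GH_A11G2767, with a pileup of 12 at 8.09-fold on A11 (104497898 to 104498165), 1325 bp upstream. GH_A11G3172, named for the immune receptor RRS1, had 12 at 7.37-fold on the same chromosome. The receptor-like kinase genes GH_A10G0390 and GH_D10G2703 each had a pileup of 10, at 6.84-fold and 6.23-fold. GH_D11G3801, a TMV resistance N-like gene on a scaffold with D11 in its label, had 9 at 6.11-fold. The lectin receptor-like kinase gene GH_A01G2276 had 8 at 5.60-fold, 771 bp upstream.

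Signalling and degradation names were counted in the same way. Kinases, phosphatases and other signalling names covered 5 genes (1.75%, 0.749 to 4.03), against 5.15% (4.22 to 6.28) of genes with lower peaks alone. Protein degradation names covered 6 genes (2.10%, 0.965 to 4.50), against 4.14% (3.31 to 5.17), and these intervals overlap. The signalling intervals do not, but kinases with receptor-like, organelle-targeted or regulator-family names were counted under those roles. The words were also corrected after the names were seen, so the signalling gap is read no further. The BLUS1-like kinase gene GH_A09G2450, whose Arabidopsis namesake acts in blue-light opening of stomata, had a pileup of 12 at 8.09-fold. The casein kinase I-like GH_A11G1374 and the STY17-like GH_D06G1587 both stood at the limit, with 8 at 5.60-fold. The phosphatase 7 homolog GH_A03G0425 had 13 at 5.54-fold, and GH_A11G1486, named for an auxin-induced protein of root cultures, had 8 at 4.46-fold. Among ligase genes, the F-box/kelch-repeat gene GH_D09G0915 had 17 at 9.62-fold and the U-box 21-like GH_A03G1308 had 26 at 6.65-fold on a background of 3.06. The RING-H2 gene GH_A06G2038 (ATL69) had 9 at 6.22-fold, and the U-box 17-like GH_D09G0893 and the peptidase genes GH_D06G0099 and GH_D13G2151 had 8 at 5.60-fold. F-box, U-box and RING proteins pick or mark substrates for the proteasome.

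Wall, cytoskeleton and traffic names covered 6 genes by the word lists (2.10%, 0.965 to 4.50), against 2.91%. These shares count matched words only. Tall genes left among the other named ones include the RABA4c-like GH_D08G1737, the formin-like GH_A01G1228 and the cell wall structural protein-like GH_D05G2964. The formin-like and cell wall genes were picked out after their values were seen. Misses among the lower peaks were not counted. GH_A01G1239, for a lyase that cuts the pectin rhamnogalacturonan, had a pileup of 16 at 7.48-fold in a peak of 696 bp, and a second lyase gene with the same name, GH_A12G0947, had 8 at 5.10-fold. The cellulose synthase-like D4 gene GH_D04G1673 had 10 at 6.84-fold, the arabinogalactan peptide gene GH_D11G2654 had 9 at 6.22-fold, the glycosyltransferase gene GH_D06G0545 had 8 at 5.60-fold, and the pectinesterase gene GH_A11G1186 had 8 at 4.46-fold on a background of 1.02. The word list for transporters and channels held 3 genes (1.05%, 0.357 to 3.04), against 2.13% of genes with lower peaks alone, led by the two-pore potassium channel gene GH_D01G0881 with 13 at 8.71-fold, 1978 bp upstream. The other 2, GH_A12G1196 (a GET3-like ATPase) and GH_A12G1917 (a phospholipid-moving ATPase), were at 8. The word list missed GH_A09G0240 (NRT1/PTR family) and GH_A13G1441 (a sucrose transporter of the SUC type), which stand among the other named genes and had pileups of 62 and 41 at 3.17-fold and 3.59-fold; both were picked out after their values were seen.

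A residual class of 40 of the 286 genes (Wilson 95% interval 10.4% to 18.5%) had informative names outside these lists, against 303 of the 1786 genes with lower peaks alone (15.3% to 18.8%). GH_D11G1388, for a RIC7-like protein of the kind that binds ROP GTPases, the plant switches of polar growth, had a pileup of 32 at 11.9-fold on D11 (12801206 to 12802102). Its peak of 897 bp, centred 1390 bp upstream, had the highest fold after the 10 strongest genes of the list, the plastid-type names aside. GH_A01G2452, for an ERBB-3 binding protein 1-like factor, had 15 at 9.95-fold. GH_D03G0450, for a heavy metal-associated isoprenylated protein, and GH_D08G1001, for a proline-rich protein, both had 12 at 8.09-fold. GH_D05G2454, named titin-like, had 11 at 7.46-fold, and GH_D08G1737, for a RABA4c-like GTPase of secretory vesicles, had 15 at 7.04-fold on a background of 1.27.

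**Figure D2:**
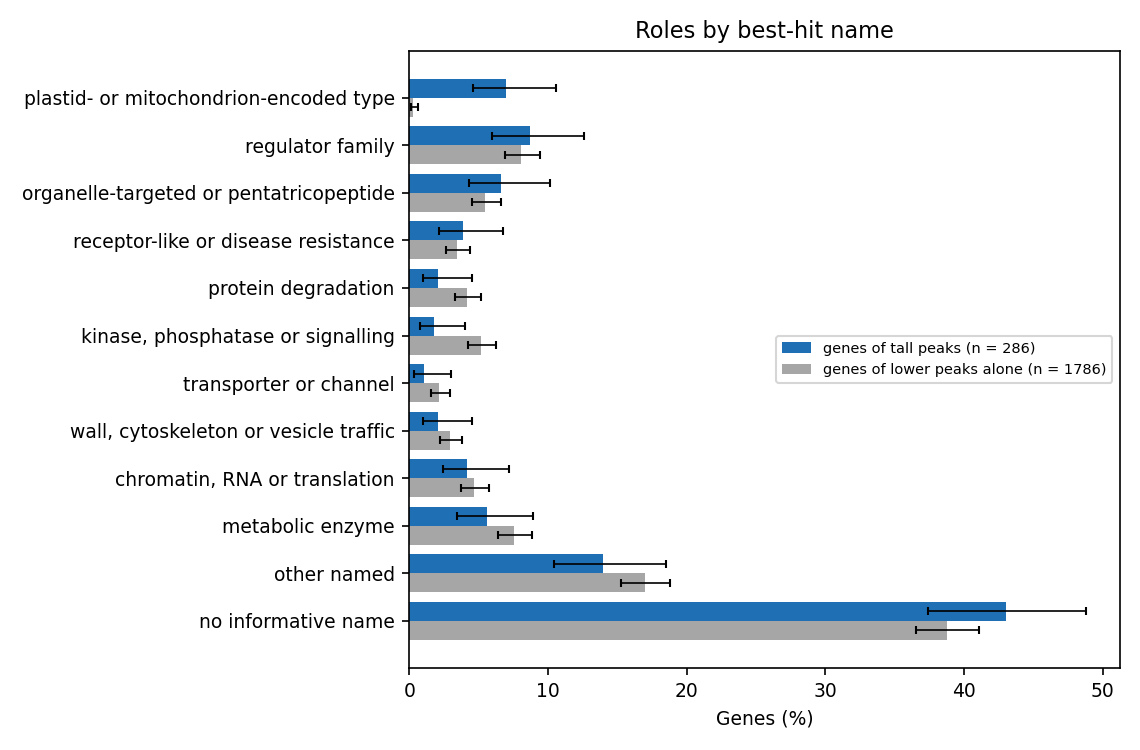
Percent of genes in each role, by the words of the best-hit name and the authors' family, for the 286 genes of tall peaks (blue) and the 1786 nuclear-type genes with lower peaks alone (grey); bars are Wilson 95% intervals. The plastid-type names stand at 6.99% and 0.280%, and the intervals of the other roles overlap except for kinase, phosphatase or signalling names (1.75% and 5.15%).

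**Figure D3:**
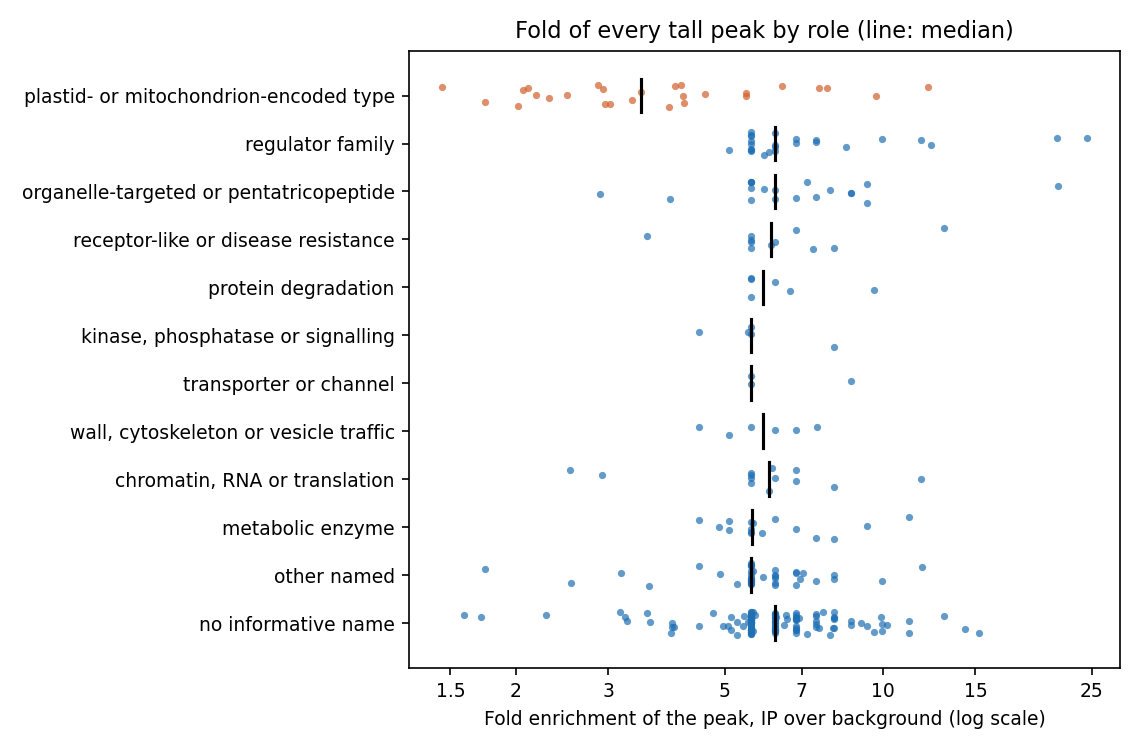
Fold enrichment of each of the 295 tall peaks by role, on a log axis, with a black line at the median of each role. The plastid-type peaks (orange) have a median of 3.47, and the medians of all other roles lie between 5.60 and 6.22; the stack of points at 5.60 is the peaks of pileup 8 on the lowest background.

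The fold medians of the roles other than plastid-type ones spanned 5.60 to 6.22. On the lowest background a pileup of 8 gives 5.60-fold and a pileup of 9 gives 6.22-fold. The narrow range is thus tied to the pileup limit and is no result about the roles. Beyond the names, 123 of the 286 genes (43.0%, 37.4 to 48.8) had no informative name and no family, against 38.8% of genes with lower peaks alone. After the 10 strongest, the highest of these were GH_A10G0464 and GH_D12G1753, both with a pileup of 17 at 11.2-fold and peaks of 546 and 525 bp.

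Among uninformative best hits, 3 belonged to more than 1 tall gene. LOC105772114 had 2 tall genes of 3 in the list and GOBAR_DD06117 had 2 of 4. The uncharacterized cotton protein LOC107961353 was the best hit of 11 genes in the longer list, and 7 of these (63.6%) had a tall peak, against 279 of the other 2100 genes (13.3%). The set was noticed in the data and is described without a test. The 7 genes lay on chromosomes A07, A08, A11, D08, D12 and D13. GH_D12G1753 had a pileup of 17, GH_A11G2060 had 13 at 8.71-fold and GH_D13G0910 had 10 at 6.84-fold, while GH_A07G1596, GH_A08G2732, GH_D08G0827 and GH_D12G0028 had 8. All 7 tall peaks stood on the lowest background of 0.608 and all 7 were also in the shorter list. Of all tall peaks, 60.0% stood on that background, and 96.1% of those were in the shorter list. Of the 13 peaks of these genes, 9 were centred 1500 to 1700 bp upstream, against 255 of the 2170 other peaks (11.8%). This window was not planned beforehand, so the contrast is a description only. All 13 peaks together ranged from 386 to 1927 bp upstream, and that of GH_D12G1753 lay at 618 bp. The gene models were short, with a median span of 623 bp over the 13 peaks. Genes that share a best hit may be copies of each other, so the 7 peaks may share reads. This was not tested, and the handling of reads with several alignments is unknown here.

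Tall peaks lay far from the start site more often than near it. The upstream 2000 bp held the centres of 278 tall peaks. The farthest 500 bp of this stretch had 104 of them (37.4%, 31.9 to 43.2, Wilson 95% interval) and the nearest 500 bp had 28 (10.1%, 7.06 to 14.2). For the 1773 lower peaks the shares were 30.9% (28.8 to 33.0) and 13.9% (12.4 to 15.6). The nearer 1000 bp held 29.9% (24.8 to 35.5) of the tall peaks and 40.2% (37.9 to 42.5) of the lower ones, and the median distances were 1375 and 1165 bp. Plastid-type names went the other way, with 16 of 22 peaks within 1000 bp and a median of 630 bp. Without them the tall share within 1000 bp was 26.2% (21.2 to 31.9). With a pileup minimum of 12, plastid-type names included, it was 38.0%, close to that of the lower peaks.

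Height and position were not ordered in a single way. The share within 1000 bp was 25.6% at pileups of 8 to 9, 21.5% at 10 to 20 and 55.8% (42.3 to 68.4) above 20. Without the plastid-type names the share above 20 was 46.9% (15 of 32, 30.9 to 63.5). Among genes with regulator names, 6 of 25 peaks were centred within 1000 bp upstream. Among informatively named genes other than plastid-type ones, the peaks centred closest upstream of the start site were those of GH_D07G2290, a receptor-like kinase gene, at 72 bp with a pileup of 8, and of the GATA gene GH_D02G2402. Centred downstream of the start site of the gene they were given to were 7 tall peaks (2.37%), 5 of them at plastid-type names. Among the lower peaks the number was 33 (1.8%). By annotation, 15 tall peaks (5.1%) fell in another or a second gene's promoter, against 4.65% of the lower peaks.

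**Figure D4:**
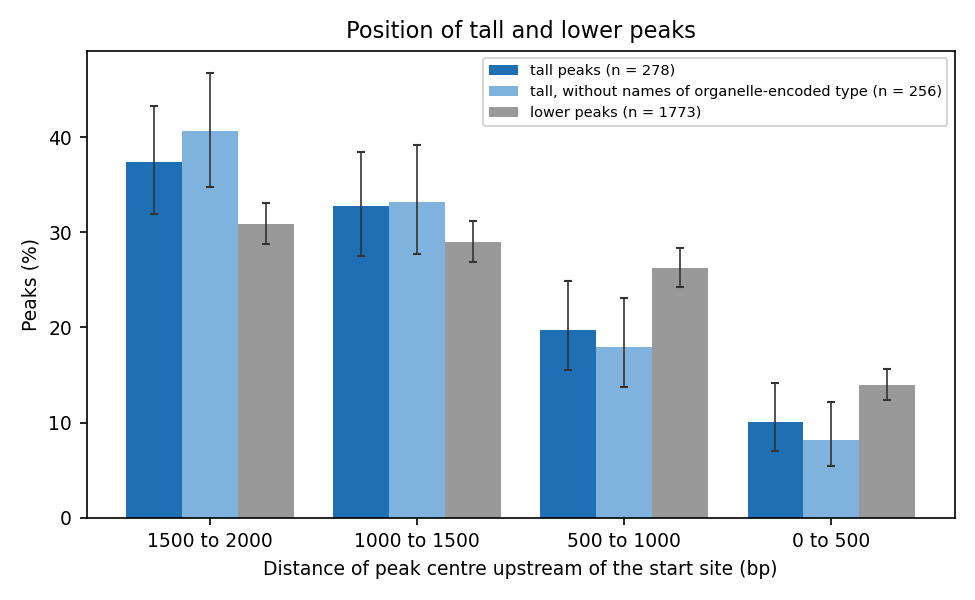
Percent of peaks in 500 bp bands of distance from peak centre to start site, among peaks centred within 2000 bp upstream, for tall peaks (dark blue, n = 278), tall peaks without names of organelle-encoded type (light blue, n = 256) and lower peaks (grey, n = 1773), with Wilson 95% intervals. The tall peaks stand at 37.4% in the farthest band and 10.1% in the nearest, and the lower peaks at 30.9% and 13.9%.

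Tall peaks were longer as well. Their median length was 250 bp, against 167 bp for the lower peaks, and 31 of the 295 (10.5%, Wilson 95% interval 7.50 to 14.5) exceeded 500 bp (9.33% without the plastid-type names), against 8 of 1828 (0.438%, 0.222 to 0.861). Length and pileup come from the same signal, so this describes the peaks and is no separate result. The longest tall peak, 1181 bp, belonged to the polymerase alpha-type gene GH_A12G2485, which also had the highest pileup of all members, 369, at 4.19-fold.

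All 26 chromosomes of the A and D subgenomes, which upland cotton inherited from its ancestral parents, had a tall peak. There were 144 on A chromosomes (49.1%, Wilson 95% interval 43.5 to 54.8) and 149 on D chromosomes, with 2 on scaffolds, against an A share of 49.4% (47.1 to 51.7) among the lower peaks. With a pileup minimum of 12 in place of 8, the A share of the tall peaks was 59.1%. Numbers per chromosome went from 6 on A02 and A06 to 20 on A11. As a share of the nuclear-type peaks on a chromosome, tall peaks were highest on A01 (20.8%, 13.1 to 31.6), D13 (19.7%) and A12 (19.1%, 12.3 to 28.5), and lowest on A07 (8.24%, 4.05 to 16.0) and D07 (8.79%, 4.52 to 16.4). The Wilson 95% intervals of all these 5 chromosomes overlap. A01 and D13 had 0 plastid-type names among 15 tall peaks each, while D02 had 5 among 12.

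**Figure D5:**
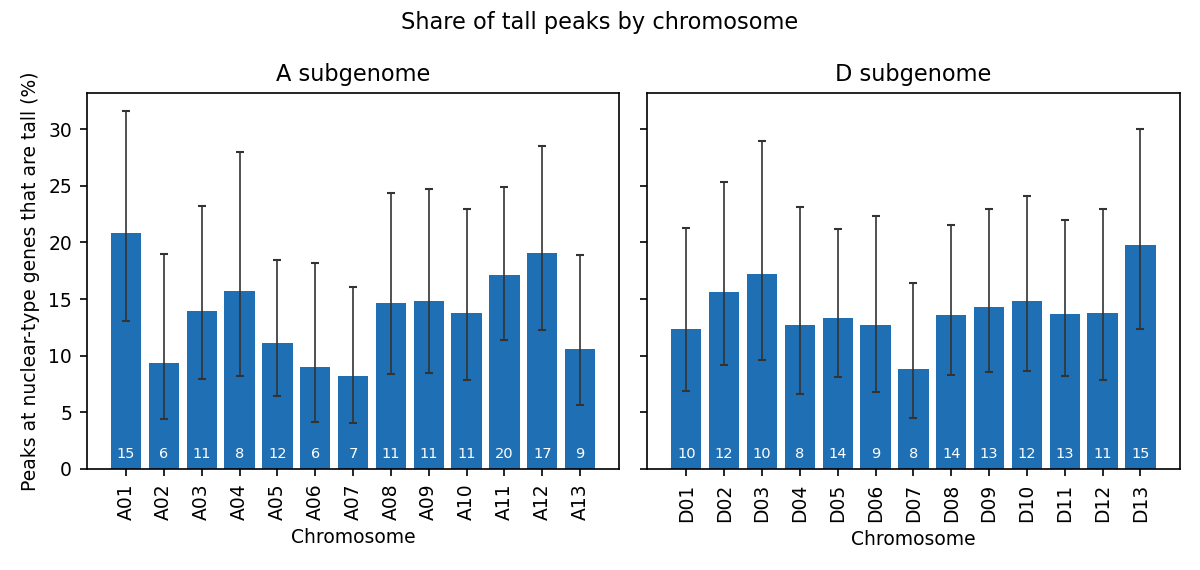
Tall peaks as a percent of all nuclear-type promoter peaks on each chromosome of the A (left) and D (right) subgenome, with Wilson 95% intervals and the number of tall peaks at the foot of each bar. Shares lie between 8.24% on A07 and 20.8% on A01, and the intervals overlap.

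For 244 of the 295 tall peaks, no peak of another gene in the longer list had its summit within 50000 bp. The same count was not made for the lower peaks, so it is not read as a trait of the tall ones. Neighbouring tall genes with summits no farther apart than 50000 bp formed 8 pairs, and 4 of these pairs included a plastid-type name. Of the others, GH_A09G2415, for an ADP-ribosylation factor-like protein of membrane traffic, and the pyruvate kinase gene GH_A09G2416 had summits 13546 bp apart on A09, with pileups of 8 and 14. GH_A01G2273, an ATHB-22-like homeobox gene, and GH_A01G2276, a lectin receptor-like kinase gene, were 12865 bp apart on A01 and both had a pileup of 8.

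Matched A or D copies of the tall genes were looked for in the list. Copies were matched by an identical informative name on the same-numbered A and D chromosomes, so unnamed genes and copies with other names are missed. Of 138 named tall genes without plastid-type names, 7 had such a copy anywhere in the longer list, and in 0 of these 7 pairs were both copies tall. Over the whole list 13.5% of genes were members, so a count of 0 among 7 is read no further. The share with a copy was not computed for genes of lower peaks. It is therefore not read as a trait of the tall genes. GH_A08G2732 and GH_D08G0827, which are both tall and share the best hit LOC107961353, are not counted because that name is uninformative. GH_A13G1649, for subunit d of the mitochondrial ATP synthase, had a pileup of 11, against 7 for GH_D13G1564. The cellulose synthase-like D4 gene GH_D04G1673 had 10, against 4 for GH_A04G1334. The factor-like GH_A09G2415 had 8, against 6 for GH_D09G2356, and the nudix hydrolase 15-like GH_A06G1390 had 8, against 5 for GH_D06G1513. The largest gap was at the ribonuclease 3-like pair, where GH_D11G1644 had 226 and 168 and GH_A11G1612 had 6. For the STY17-like kinases the values were 8 at GH_D06G1587 and 4 at GH_A06G1492, and for the aminopeptidase M1-like genes 8 at GH_D13G2151 and 4 at GH_A13G2169. At the ribonuclease pair the order of the folds was the other way, 2.53 and 2.92 against 4.35. None of these differences has a replicate.

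The 295 tall peaks lay at 286 genes, and the 1828 lower peaks at 1801 genes. More than 1 tall peak was found at 8 genes. Of these, 6 had plastid-type names, with 3 peaks at GH_D02G1279, whose pileups were 196, 77 and 161. GH_A11G1884 (S2-type) had pileups of 83 and 112, GH_D03G0876 (ATP synthase beta-type) 167 and 94, GH_D08G1324 (photosystem II D2-type) 23 and 18, and GH_D12G1021 (S7-type) 137 and 149. GH_A13G1011 was the remaining one. The other 2 were GH_D11G1644 and the uncharacterized GH_D04G0960, whose peaks both had a pileup of 8.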

How the data were processed

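Genomic DNA of fiber was probed with GhD53 by DNA affinity purification sequencing, with 1 IP and 1 input library. BWA, ChIPseeker and deepTools 2.5.4 were used by the authors, per the submitters' processing notes. The sources used here do not give the peak caller, the genome build or the filters. Coordinates are those of the files. Per the file headers, the authors deposited for each peak the pileup (a signal in fragments), the fold (a ratio over background), and −log10 p and −log10 q values. Library totals were not used here; depth is described by pileup alone.

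From these, the background was recovered as (pileup + 1) / fold − 1, which gave the deposited −log10 p by a Poisson tail to within 0.001 for 2181 of 2183 peaks. The authors' distance from peak centre to start site was used. Intervals of shares are Wilson 95% intervals and cover counting error only. Genes took the authors' regulator family, or the first role whose words their best-hit name holds; the words were corrected after the names were seen. Up to 6 genes per role with the highest fold outside the 10 highest of the list were named, and at most 2 without a name. Other genes are marked as chosen after their values were seen, or belong to pairs, copies and repeated peaks. The members and lists were chosen with earlier results of these data known. With 1 library per fraction no test was made. The selection and naming steps were tested on simulated data. Python 3.11.15, pandas 2.3.3, scipy 1.17.1 and matplotlib 3.10.9 were used.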

Additional observations from a re-analysis of the deposited data

How the results depend on the processing

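No paired analysis was possible because each fraction had 1 library. The 295 tall peaks became 484 at a pileup minimum of 7, 156 at 10, 110 at 12, 177 at a q-value of 1e-05 or lower, and 177 on the lowest background. The median fold, 5.67, became 5.10, 6.84 and 7.27 at minimums of 7, 10 and 12, and 6.84 with the q-value limit. The share on A chromosomes was 59.1% at a minimum of 12, and the share centred within 1000 bp upstream was 38.0% there and 21.2% on the lowest background. The share also in the shorter list was 87.2% at a minimum of 7, 96.6% with the q-value limit and 96.1% on the lowest background. The share on the lowest background was 69.2%, 41.0% and 28.2% at minimums of 7, 10 and 12, and 66.0% without plastid-type names. The share of the list's summed pileup held by the tall peaks, 30.9%, was 35.6%, 26.9% and 25.2% at those minimums, 18.4% without plastid-type names, 27.1% for peaks in the gene's own promoter only, 27.9% with 1 peak per gene, 26.1% with the q-value limit and 6.07% on the lowest background. The share of genes with a regulator family kept within its interval under each alternative. In all, 37 recomputed values stayed within the 95% interval of the value reported (for the number of peaks, within 1.5 times) and 27 did not. These intervals are of unlike kinds. That of the summed pileup (30.4 to 31.5) takes each stacked fragment as independent, and every alternative for that share fell outside it. The 2 counts are therefore no measure of how robust the results are. Each alternative differs in which peaks it keeps, and no further cause was tested. With pileups of 8 to 9 at 139 peaks, a promoter missing from the tall set is no sign that GhD53 does not bind it.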
